A study of Mus musculus with 13 samples.

Results

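The lining of blood vessels was followed through 36 genes by which endothelial cells of blood vessels are recognised in mouse tissue. All 36 were found by symbol among the 46679 gene IDs of the expression tables, and all 36 passed the filter on low counts in each comparison. They were picked by gene name with earlier results of these data known, although the rule itself uses no measured value. Of the 36, 31 are expressed by endothelium of most organs and are called pan-endothelial here, although 7 of these (Pecam1, Icam2, Fli1, S1pr1, Vwf, Bmpr2 and Eng) are also known in platelets, leukocytes or other cells. The other 5 (Car4, Gpihbp1, Tmem100, Calcrl and Ramp2) are taken as genes of lung capillaries, in which they are particularly abundant, although Gpihbp1, Calcrl and Ramp2 also mark capillaries of other organs.

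RNA was measured in mammary tumors of 3 mice, in lungs of 4 mice that carried such a tumor and in lungs of 4 normal mice, all female, of strain FVB and 10 weeks old. Tumors grew for 2 weeks from 250000 Met1 cells, a mouse breast cancer line, injected at 8 weeks of age into the inguinal mammary fat pad, so that all tumors derive from 1 line and their vessels from the host. The 3 tumors came from mice 6877, 6880 and 6881, whose lungs were measured too. The sources used here do not give a mock injection of the normal mice. The stated purpose was to learn what a tumor elsewhere in the body does to gene expression in the lung. Libraries were prepared in batch 1 (lungs of 3 tumor-bearing and 2 normal mice) and batch 2 (3 tumors, 1 tumor-bearing lung and 4 normal lungs), with normal mice 6886 and 6888 in both.

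Endothelial cells line every vessel and form its barrier through junctions built from VE-cadherin and claudin-5. They sense growth factors through VEGF, angiopoietin and BMP receptors, and transcription factors of the ETS family (Erg, Fli1) and of the SOX F group (Sox7, Sox17, Sox18) maintain their identity. The lung is among the organs richest in endothelium, because each alveolus is wrapped in capillaries. Some of the capillary cells carry carbonic anhydrase 4 (Car4) on their surface.

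Libraries held 8321333 to 13983506 estimated counts, of which protein-coding genes took 46.5 to 51.8% in the tumors, 45.6 to 59.0% in tumor-bearing lungs and 47.0 to 69.5% in normal lungs. The tissues bore the marks of their labels. Alveolar epithelial genes took 0.0621 to 0.0918% of protein-coding counts in the tumors and 2.57 to 3.05% in normal lungs of batch 2, and 8 cell cycle genes took 0.124 to 0.139% in the tumors and 0.00490 to 0.00770% in those lungs. The vessel genes differed between preparation batches of the same lung: in mouse 6886 the batch 2 library was lower than the batch 1 library of the same lung by a median of 0.50 log2 CPM (counts scaled to library size) over the 36 genes (difference −0.50), and in mouse 6888 by a median of 0.85 (difference −0.85). Of the 36 genes, 33 were lower in the batch 2 library of both mice. Tumors were therefore set against normal lungs of batch 2 alone, and every other comparison carried a term for batch.

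In normal lung the endothelial genes spanned a wide range of abundance. Per gene length, Egfl7, a secreted protein of vessel walls, was the most abundant at 48.3 ± 2.08 TPM, a measure of abundance corrected for gene length (SD, n = 4 mice, batch 2), and its lowest lung lay above the highest lung of the next gene. The BMP9 receptor Acvrl1 followed at 30.7 ± 4.39 TPM, then the adrenomedullin receptor genes Calcrl (25.4 ± 4.91 TPM) and Ramp2 (22.5 ± 3.18 TPM), and these neighbours overlapped between mice. The lead of Egfl7 over Acvrl1 did not hold in each batch 1 library of normal lung. Egfl7 had 76.9 TPM and Acvrl1 78.1 TPM in mouse 6886, and 65.4 and 57.4 TPM in mouse 6888. In all, 10 genes averaged above 10 TPM. At the low end stood the nitric oxide synthase Nos3 at 0.219 ± 0.0626 TPM and the vessel wall glycoprotein Mmrn2 at 0.369 ± 0.0705 TPM, and only 4 of the 35 neighbouring pairs in this order did not overlap between mice. Egfl7, at 56.2 ± 10.4 TPM, and Acvrl1, at 34.3 ± 11.7 TPM, also led in tumor-bearing lungs (SD, n = 4). In the tumors Egfl7 again came first, at 2.56 ± 0.581 TPM (SD, n = 3), but 34 of the 36 genes averaged below 1 TPM and Gpihbp1 came next at 1.29 ± 0.346 TPM. Egfl7 overlaps Agpat2, on the opposite strand, and the microRNA gene inside it, so its level is uncertain.

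**Figure D1:**
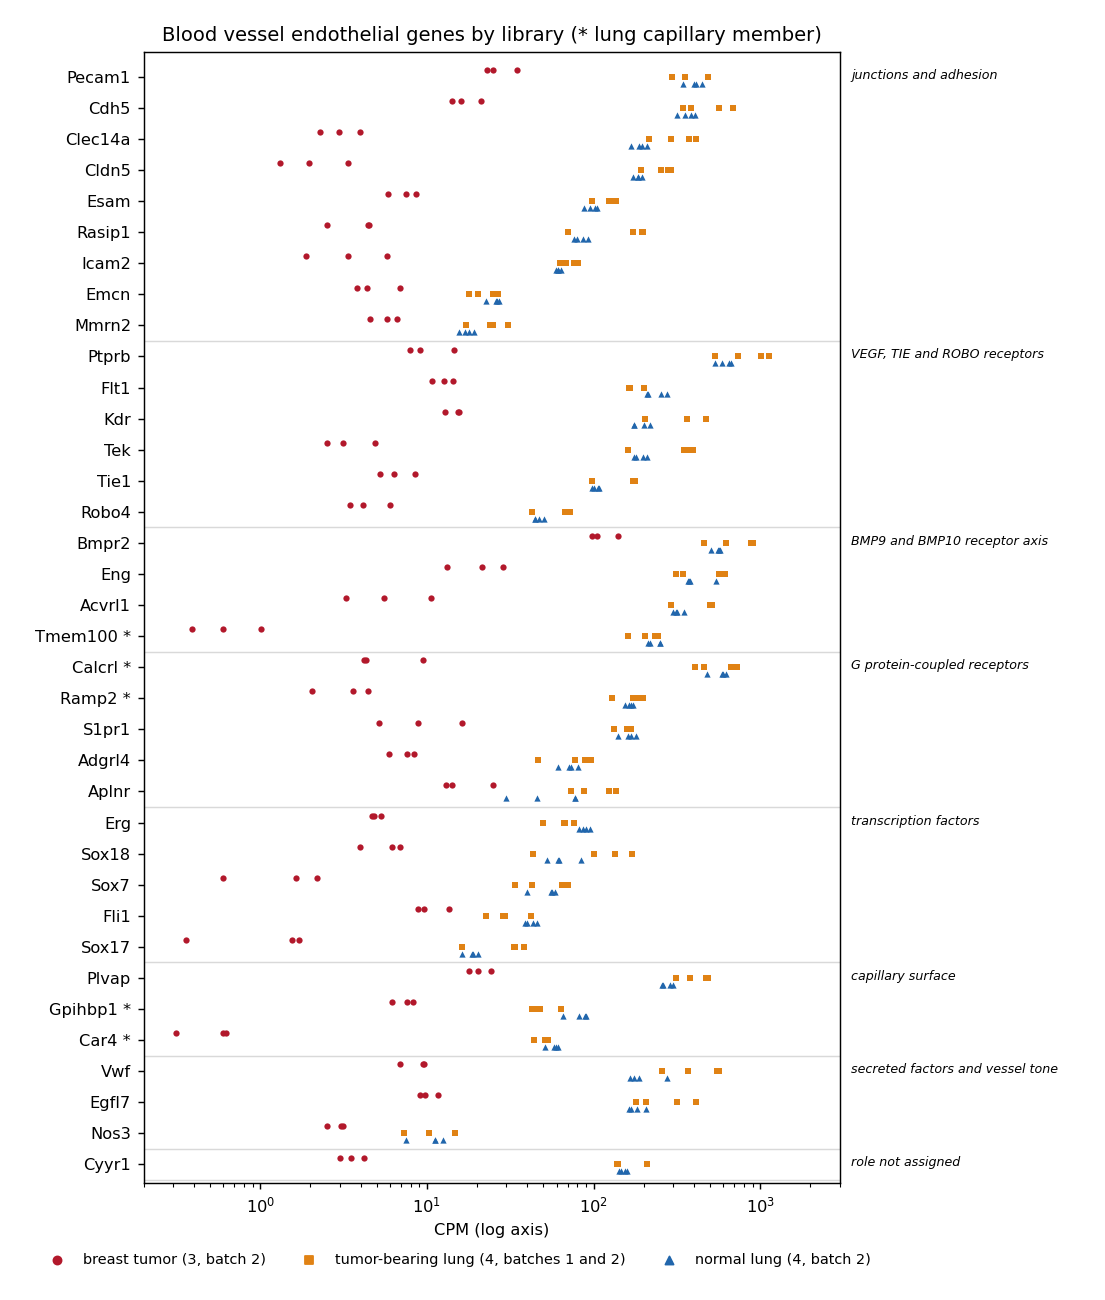
CPM (log axis) of the 36 endothelial genes in each library, grouped by role, for 3 breast tumors (circles), 4 tumor-bearing lungs of both batches (squares) and 4 normal lungs of batch 2 (triangles). For all 36 genes the tumors lie below every lung shown. The tumor-bearing lungs are 3 of batch 1 and 1 of batch 2, so the display does not compare the 2 lung groups with each other.

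All 36 endothelial genes were lower in breast tumors than in normal lung, and the groups did not overlap for any of them. Together they took 0.0563 to 0.0864% of protein-coding counts in the 3 tumors and 1.20 to 1.37% in the 4 normal lungs. In edgeR's quasi-likelihood test, all 36 were called lower at an adjusted p below 0.05, in a comparison in which 27.4% of all 18038 genes tested were called lower and 29.4% higher and in which 30.3% of all genes were lower without overlap. The median log2 fold change of the 36 was −4.08, against −0.02 over all genes, and single genes were from 3.03 to 336-fold lower in the tumors. Heart muscle genes took 0.123% of protein-coding counts in normal lung 6886 and 0.00380 to 0.00766% in the other 3 normal lungs. Without lung 6886 all 36 genes were still called lower, with a median of −4.11, where 9183 of all genes were called in either direction. In these bulk tissues, fewer endothelial cells and less RNA per endothelial cell cannot be told apart.

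Among genes of junctions and adhesion, all 9 were lower, with a median log2 fold change of −4.04. Pecam1 (CD31), the adhesion molecule most used to stain vessels, had 25.0, 22.9 and 34.9 CPM in tumors 6877, 6880 and 6881, against 414, 346, 399 and 445 CPM in normal lungs 6886, 6887, 6888 and 6893 (log2 fold change −3.84, SE 0.22, adjusted p = 1.57e-06). Cdh5, VE-cadherin, had 14.1, 15.9 and 21.1 CPM in the tumors, against 385, 316, 355 and 406 CPM in normal lungs (log2 fold change −4.40, SE 0.22, adjusted p = 8.21e-07). Cldn5, the claudin that seals endothelial tight junctions, had 1.32, 1.95 and 3.35 CPM in the tumors, against 184, 195, 186 and 173 CPM in normal lungs (log2 fold change −6.32, SE 0.31, adjusted p = 6.44e-07). Cldn5 was 80.1-fold lower in the tumors, Cdh5 21.2-fold and Pecam1 14.4-fold. Clec14a, a lectin of angiogenic endothelium, was 60.2-fold lower, the junction protein Esam 13.1-fold, Icam2, a ligand for leukocyte integrins, 16.4-fold, and Rasip1, which endothelial cells need to form a lumen, 21.2-fold. Emcn, the sialomucin of capillaries and veins, had 6.94, 3.82 and 4.37 CPM in the tumors, against 26.1, 27.1, 22.7 and 26.2 CPM in normal lungs (log2 fold change −2.35, SE 0.23, adjusted p = 2.63e-05). Mmrn2, the matrix ligand that binds Clec14a, had 4.55, 5.77 and 6.63 CPM in the tumors, against 19.2, 15.5, 17.0 and 18.0 CPM in normal lungs (log2 fold change −1.60, SE 0.20, adjusted p = 0.00014). Mmrn2 was the least lowered of the 36 genes at 3.03-fold, while its partner Clec14a was among the most lowered.

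The 6 genes of the VEGF, TIE and ROBO receptor group had a median log2 fold change of −4.07. Kdr, the main signalling receptor for VEGF-A, had 12.9, 15.3 and 15.6 CPM in the tumors, against 217, 175, 176 and 201 CPM in normal lungs (log2 fold change −3.70, SE 0.17, adjusted p = 5.5e-07). Flt1, which binds VEGF-A and placental growth factor, had 12.7, 10.7 and 14.3 CPM in the tumors, against 210.3, 254, 274 and 212 CPM in normal lungs (log2 fold change −4.23, SE 0.20, adjusted p = 5.92e-07). Tek, the angiopoietin receptor, had 2.51, 4.92 and 3.12 CPM in the tumors, against 209.6, 179.6, 197 and 174 CPM in normal lungs (log2 fold change −5.72, SE 0.26, adjusted p = 4.99e-07). The tumors lay close together for Kdr and Flt1, and below every lung. Tek was 52.7-fold lower, whereas Tie1, the related receptor with which it pairs, was 15.1-fold lower. Ptprb (VE-PTP), the phosphatase that acts on Tek and VE-cadherin, was 56.7-fold lower, and the guidance receptor Robo4 was 10.1-fold lower.

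The receptors for the circulating ligands BMP9 and BMP10 were lowered by unequal amounts. Acvrl1, the type I receptor ALK1, had 10.5, 3.28 and 5.54 CPM in the tumors, against 315, 299, 313 and 347 CPM in normal lungs (log2 fold change −5.65, SE 0.38, adjusted p = 3.23e-06). Eng, the co-receptor endoglin, had 13.2, 21.5 and 28.5 CPM in the tumors, against 380.4, 368, 374 and 544 CPM in normal lungs (log2 fold change −4.28, SE 0.32, adjusted p = 5.98e-06). Bmpr2, the type II receptor, had 105, 141 and 98.3 CPM in the tumors, against 556, 507, 573 and 569 CPM in normal lungs (log2 fold change −2.25, SE 0.18, adjusted p = 9.88e-06). Bmpr2, which many other cells also express, was 4.77-fold lower, while Acvrl1 was 50.1-fold and Eng 19.5-fold lower. Tmem100, a membrane protein that ALK1 signalling induces in endothelium and that lies at chr11:90030348-90036508 (GRCm38), had 0.599, 0.390 and 1.01 CPM in the tumors, against 251, 211, 219 and 250.0 CPM in normal lungs (log2 fold change −8.39, SE 0.31, adjusted p = 1.75e-07). That 336-fold difference was the largest of the 36 and rested on 5, 5 and 13 counts in the tumors.

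Of the G protein-coupled receptors and their partner, Calcrl and Ramp2 together form the adrenomedullin receptor. Calcrl had 4.31, 4.21 and 9.44 CPM in the tumors, against 601, 479, 592 and 625 CPM in normal lungs (log2 fold change −6.55, SE 0.38, adjusted p = 1.46e-06). Ramp2 had 2.03, 3.59 and 4.44 CPM in the tumors, against 168, 155, 163 and 173 CPM in normal lungs (log2 fold change −5.57, SE 0.27, adjusted p = 6.33e-07), and it overlaps Vps25 on the same strand. Both subunits were thus lower, by 93.6-fold and 47.4-fold. The sphingosine 1-phosphate receptor S1pr1 was 15.6-fold lower and the adhesion receptor Adgrl4 9.79-fold. Aplnr, the apelin receptor, which rises in sprouting vessels, had 14.1, 13.1 and 25.0 CPM in the tumors, against 45.8, 77.0, 29.7 and 77.5 CPM in normal lungs (log2 fold change −1.70, SE 0.38, adjusted p = 0.00418). For Aplnr the highest tumor lay close to the lowest normal lung, and the gene was 3.25-fold lower.

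The 5 transcription factors had a median log2 fold change of −3.83. Erg, the ETS factor most restricted to endothelium, had 4.79, 5.31 and 4.68 CPM in the tumors, against 81.3, 89.7, 95.5 and 86.7 CPM in normal lungs (log2 fold change −4.15, SE 0.15, adjusted p = 1.97e-07). Fli1, its close relative that blood cells express as well, had 8.86, 9.60 and 13.6 CPM in the tumors, against 38.7, 45.6, 43.0 and 39.9 CPM in normal lungs (log2 fold change −1.95, SE 0.19, adjusted p = 3.38e-05). Erg was 17.7-fold lower and Fli1 3.86-fold lower. The SOX F factors were lower by 33.6-fold (Sox7), 14.3-fold (Sox17) and 11.2-fold (Sox18). Sox7 held 5, 21 and 28 counts in the tumors and Sox17 3, 22 and 20 counts, the lowest of each in mouse 6877.

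Of the capillary surface genes, Car4, the carbonic anhydrase of alveolar capillaries at chr11:84957786-84966044 (GRCm38), had 0.599, 0.624 and 0.312 CPM in the tumors, against 58.2, 51.2, 61.4 and 59.4 CPM in normal lungs (log2 fold change −6.80, SE 0.24, adjusted p = 1.66e-07). It rested on 5, 8 and 4 counts in the tumors and was 111-fold lower. Gpihbp1, which carries lipoprotein lipase to the capillary lumen and lies at chr15:75596628-75599481 (GRCm38), had 8.26, 6.16 and 7.56 CPM in the tumors, against 66.0, 82.1, 88.5 and 89.6 CPM in normal lungs (log2 fold change −3.47, SE 0.19, adjusted p = 1.12e-06). Plvap, the protein of the diaphragms that span endothelial fenestrae and caveolae, had 18.0, 20.2 and 24.3 CPM in the tumors, against 259, 288, 259.9 and 298 CPM in normal lungs (log2 fold change −3.71, SE 0.18, adjusted p = 7.5e-07). Gpihbp1 was 11.1-fold and Plvap 13.1-fold lower. Of secreted factors and vessel tone, the clotting protein Vwf was 22.8-fold lower and Egfl7 17.5-fold. Nos3 had 2.51, 3.04 and 3.12 CPM in the tumors, against 12.6, 7.54, 11.2 and 11.1 CPM in normal lungs (log2 fold change −1.85, SE 0.26, adjusted p = 0.00026), a 3.61-fold difference in a gene that overlaps Atg9b on the opposite strand. Cyyr1, a membrane protein to which no role was assigned, was 41.2-fold lower.

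**Figure D2:**
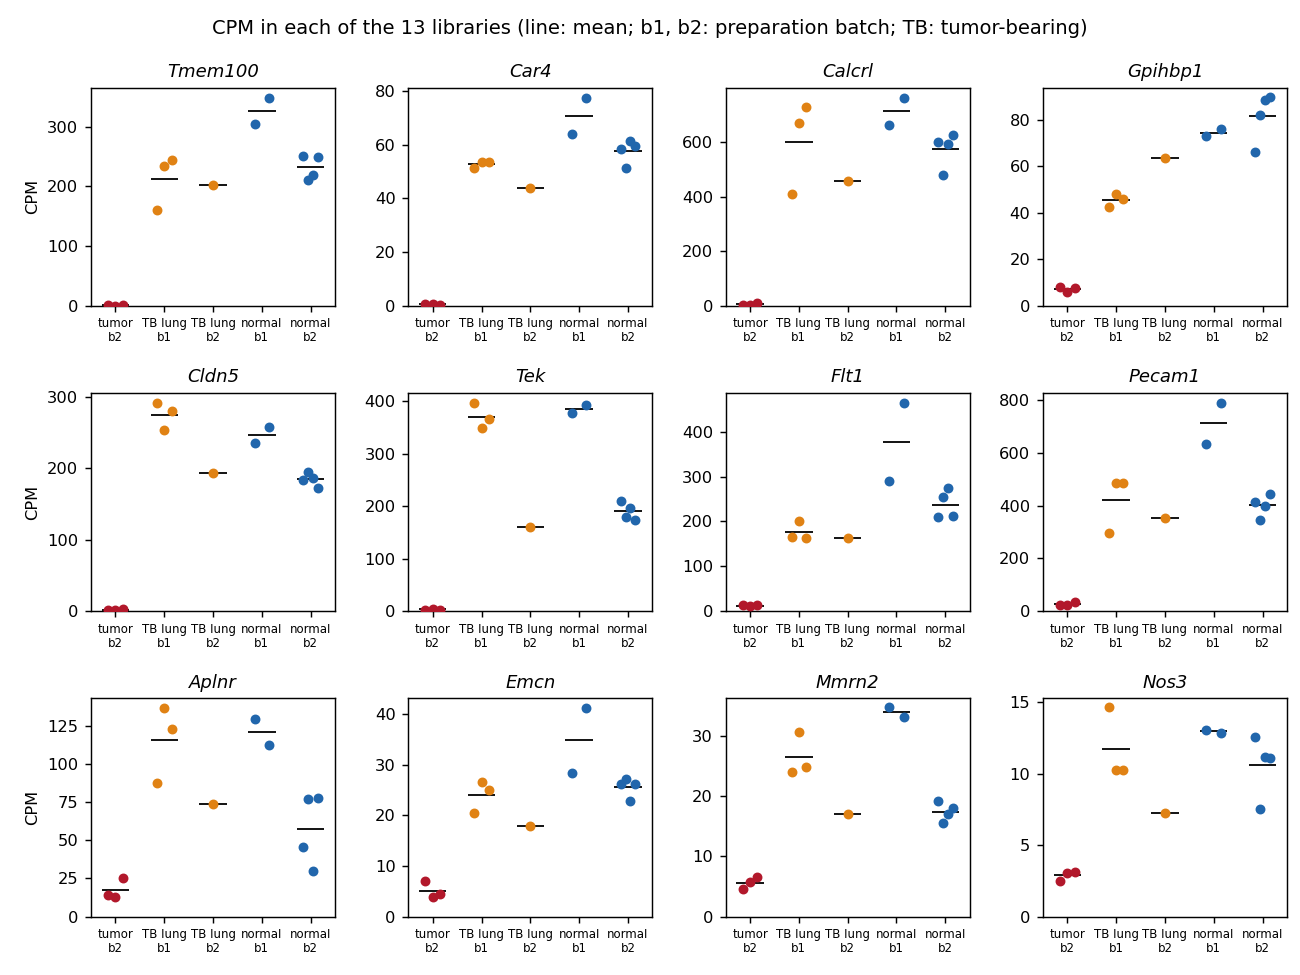
CPM of 12 endothelial genes in each of the 13 libraries, as points, with group means as lines, for breast tumors, tumor-bearing lungs and normal lungs by preparation batch. Tmem100, Car4, Calcrl, Cldn5 and Tek are near 0 in the tumors, whereas Aplnr, Emcn, Mmrn2 and Nos3 keep a visible share of the lung level.

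By their median, lung capillary genes were further below lung level in the tumors than pan-endothelial genes. Their median log2 fold change was −6.55 over the 5 genes, against −3.97 over the 31 pan-endothelial genes. Single genes of the 2 sets overlapped. The lung capillary genes ran from −8.39 (Tmem100) to −3.47 (Gpihbp1) and the pan-endothelial genes from −6.32 (Cldn5) to −1.60 (Mmrn2). The 5 were taken for their abundance in lung, a choice that by itself favours a larger difference between lung and another tissue. To compare each gene with the endothelium at large, libraries were rescaled to the mean log2 count of the 24 pan-endothelial genes not known in other cell types, a step added after the data were seen. On this scale 0 means that a gene was lowered as much as those 24. With so few endothelial transcripts in the tumors, 92.2% of all genes tested came out higher on this scale and 2.32% lower, so the scale serves to order the endothelial genes and not to compare them with others. Of the 5 lung capillary genes 4 were lower and 1 was higher, and of the 31 pan-endothelial genes 7 were lower, 9 higher and 15 not called. Because the scale is centred on 24 of these same 31 genes, some must lie below 0 and some above, so the balance of these counts is no result. With nearly all genes called, adjustment also changes p little on this scale.

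Relative to that pan-endothelial level, Tmem100 was 20.4-fold lower in the tumors (log2 fold change −4.35, SE 0.30, adjusted p = 6.57e-08), Car4 6.57-fold (−2.72, SE 0.37, adjusted p = 2.27e-05) and Calcrl 5.67-fold (−2.50, SE 0.27, adjusted p = 2.8e-06). Ramp2 fell by 2.86-fold (−1.52, SE 0.23). Gpihbp1 alone among the lung capillary genes went the other way and was called 1.58-fold higher (0.66, SE 0.25, adjusted p = 0.0239). Its unadjusted p was 0.0223. That call for Gpihbp1 was not stable, since the log2 fold change was −0.11 when libraries were scaled to 19 other pan-endothelial genes.

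The pan-endothelial genes below their common level in the tumors were Cldn5 (−2.29, SE 0.26), Clec14a (−1.85, SE 0.21), Ptprb (−1.76, SE 0.22), Tek (−1.63, SE 0.27), Acvrl1 (−1.47, SE 0.39), Cyyr1 (−1.29, SE 0.21) and Sox7 (−1.05, SE 0.33), all as log2 fold changes on the rescaled level. They include a tight junction protein, the angiopoietin receptor with its phosphatase, and ALK1. That some pan-endothelial genes lie below 0 is set by the scale itself and is no result. Above the common level stood Mmrn2 (2.48, SE 0.23), Aplnr (2.38, SE 0.33), Nos3 (2.24, SE 0.30), Fli1 (2.13, SE 0.21), Bmpr2 (1.87, SE 0.23) and Emcn (1.81, SE 0.32). These 6 genes, and the 11 lower ones, kept their calls under all 3 scalings and with each library left out. Acvrl1 ran from −2.20 without tumor 6877 to −1.12 without tumor 6880. Scaled to 19 other pan-endothelial genes, the 6 ran from 1.03 to 1.74 and the 11 from −5.10 to −1.78. Libraries were left out on the main scale alone, where nearly all genes were called and pan-endothelial genes set the centre. The third scaling is not described here. Calls kept in those 2 ways are thus no separate support. Fli1 and Bmpr2 are also known in other cells of a tumor, and how much of their level came from such cells was not tested. Adgrl4, Robo4, Gpihbp1 and Sox18 were called higher as well, by log2 fold changes of 0.85, 0.74, 0.66 and 0.59, but not when scaled to the 19 other pan-endothelial genes. That scaling called 22 of the 36 genes lower and 6 higher. The share of all genes called under it is not given here, so these counts show only that calls move with the scale. The general markers Pecam1 (0.25), Cdh5 (−0.32), Kdr (0.41), Flt1 (−0.13), Tie1 (0.15) and Plvap (0.38) were among the 15 not called. Scaled to the 19 other genes, however, Pecam1 (−0.51, adjusted p = 0.02), Tie1 (−0.60, adjusted p = 0.0166), Icam2 (−0.76, adjusted p = 0.0234) and S1pr1 (−0.68, adjusted p = 0.0324) were called lower.

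**Figure D3:**
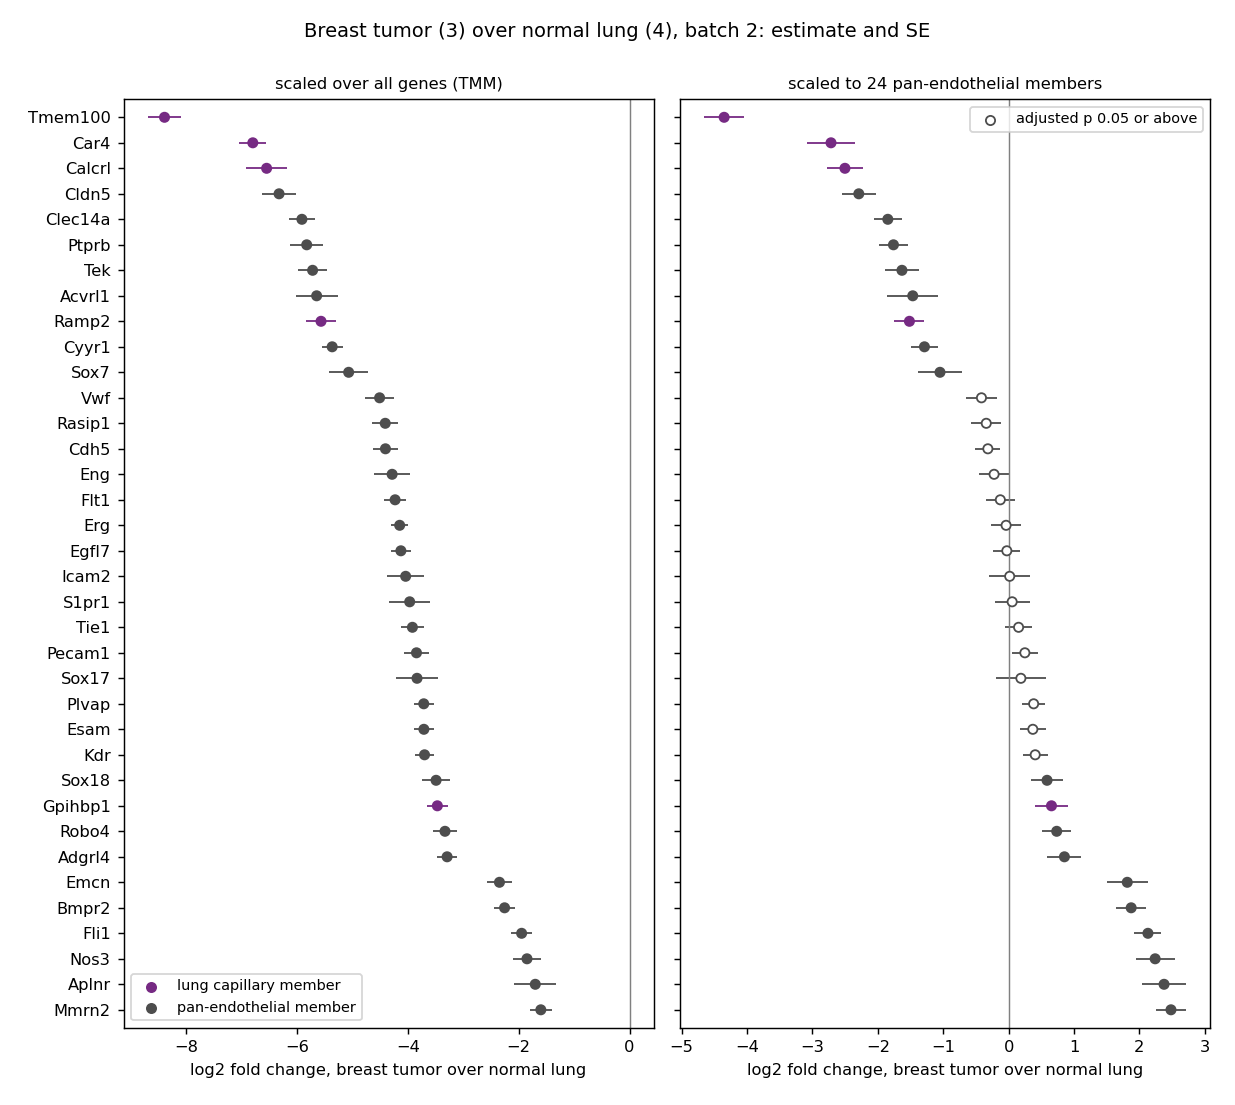
Log2 fold change of the 36 endothelial genes in 3 breast tumors over 4 normal lungs of batch 2, as points with SE, scaled over all genes (left) and to the 24 pan-endothelial genes (right). On the left all values lie between −8.39 and −1.60. On the right 3 of the 5 lung capillary genes stand lowest, at or below −2.50, and open points mark genes not called.

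Promoters were looked at because ETS factors such as Erg and Fli1 are known to act on endothelial genes, and because the genes were lowered together. RefSeq promoter windows of GRCm38.p6, 250 bases before to 50 bases after a start, were matched for 17 of the 36 genes, which have 21 windows. Shown are 2 lung capillary genes, Calcrl and Car4, a strongly lowered junction gene, Cldn5, and 2 genes that stayed above the pan-endothelial level, Emcn and Bmpr2. Capitals mark AGGAAG, a letter form of the ETS core, or its reverse complement CTTCCT. The windows are chr2:84425217-84425516 (minus strand) for Calcrl, chr11:84957504-84957803 (plus strand) for Car4, chr16:18776597-18776896 (plus strand) for Cldn5, chr3:137340828-137341127 (plus strand) for Emcn and chr1:59764029-59764328 (plus strand) for Bmpr2, each written 5′ to 3′ along its gene.
Calcrl: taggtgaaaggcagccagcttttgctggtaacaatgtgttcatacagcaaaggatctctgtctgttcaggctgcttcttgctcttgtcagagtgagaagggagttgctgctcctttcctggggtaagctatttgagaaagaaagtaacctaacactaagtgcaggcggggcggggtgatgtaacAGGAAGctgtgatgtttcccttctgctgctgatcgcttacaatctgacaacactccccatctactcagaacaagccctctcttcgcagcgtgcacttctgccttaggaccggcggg
Car4: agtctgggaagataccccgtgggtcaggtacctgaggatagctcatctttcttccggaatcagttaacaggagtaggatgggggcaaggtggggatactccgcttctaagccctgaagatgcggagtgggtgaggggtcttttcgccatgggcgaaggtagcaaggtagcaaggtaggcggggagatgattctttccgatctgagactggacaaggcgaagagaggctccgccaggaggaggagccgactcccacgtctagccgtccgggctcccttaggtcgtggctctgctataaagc
Cldn5: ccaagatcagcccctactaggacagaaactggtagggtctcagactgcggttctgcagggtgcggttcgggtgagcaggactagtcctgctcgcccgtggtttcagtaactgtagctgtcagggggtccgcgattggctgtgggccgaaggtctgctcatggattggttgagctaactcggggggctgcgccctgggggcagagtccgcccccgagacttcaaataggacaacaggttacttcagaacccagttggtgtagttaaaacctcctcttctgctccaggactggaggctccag
Emcn: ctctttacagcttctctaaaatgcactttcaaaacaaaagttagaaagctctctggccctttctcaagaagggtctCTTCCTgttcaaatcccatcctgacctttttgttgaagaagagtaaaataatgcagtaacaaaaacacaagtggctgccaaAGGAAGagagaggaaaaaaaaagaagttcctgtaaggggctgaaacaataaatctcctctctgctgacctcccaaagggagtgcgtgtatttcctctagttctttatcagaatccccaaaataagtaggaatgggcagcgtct
Bmpr2: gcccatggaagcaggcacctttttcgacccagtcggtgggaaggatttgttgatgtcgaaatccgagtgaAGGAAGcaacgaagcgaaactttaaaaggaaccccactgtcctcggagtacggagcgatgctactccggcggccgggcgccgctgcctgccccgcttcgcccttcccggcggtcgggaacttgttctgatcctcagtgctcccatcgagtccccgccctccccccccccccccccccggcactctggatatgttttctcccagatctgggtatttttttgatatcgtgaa
Emcn holds 2 matches in its window, Calcrl and Bmpr2 1 each, and Car4 and Cldn5 none. Over both strands AGGAAG stood in 13 of the 21 windows of endothelial genes (61.9%), against 35.4% of all 32851 windows. The longer CAGGAAG, which contains AGGAAG, stood in 8 of the 21 windows, which belong to Calcrl, Cyyr1, Egfl7, Emcn, Erg, Rasip1 and Robo4, and in 13.3% of all windows. The other ETS form CCGGAAG was in 1 of the 21 (Car4), against 8.86% of all, and the SOX forms ACAATG and ACAAAG were in 2 and 3 of the 21, against 12.6 and 18.7% of all. These matches describe letters in a window and not binding.

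Breast tumors were next set against the lungs of tumor-bearing mice, to see whether the difference from normal lung also holds against lungs of tumor hosts. All 36 genes were again lower in the tumors without overlap, and all 36 were called, against 23.7% of all 18297 genes called lower, 22.6% called higher and 27.4% lower without overlap. The median log2 fold change was −3.92 over the 36 genes, −3.91 over the pan-endothelial and −6.27 over the lung capillary genes, against −0.10 over all genes. Tmem100 (log2 fold change −8.04, SE 0.36, adjusted p = 3.45e-08), Cldn5 (log2 fold change −6.46, SE 0.31, adjusted p = 4.72e-08) and Car4 (log2 fold change −6.39, SE 0.26, adjusted p = 2e-08) were the most lowered. Nos3 (log2 fold change −1.42, SE 0.29, adjusted p = 0.00179), Mmrn2 (log2 fold change −1.43, SE 0.23, adjusted p = 0.00033) and Fli1 (log2 fold change −1.51, SE 0.28, adjusted p = 0.000895) were the least. This comparison shares the tumors with the one against normal lung.

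Within mouse 6877, whose tumor and lung were prepared in the same batch, tumor minus lung had a median of −4.19 log2 CPM over the 36 genes, with a range of −8.04 to −1.34. The median was −5.88 over the lung capillary genes and −4.16 over the pan-endothelial genes of that mouse. In mice 6880 and 6881, whose lungs were batch 1 and tumors batch 2, the difference holds the batch as well. For Tmem100 tumor minus lung was −8.04, −8.71 and −7.69 log2 CPM in mice 6877, 6880 and 6881, and for Car4 −5.84, −6.08 and −6.81. For Gpihbp1 it was −2.91, −2.93 and −2.58, and for Emcn −1.34, −2.75 and −2.47. That each of the 36 genes was lower in the tumor than in the lung of all 3 mice follows from groups that did not overlap. It is no further result.

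Between tumor-bearing and normal lungs no endothelial gene passed the adjusted threshold. None of the 36 was called by edgeR at an adjusted p below 0.05, where 0.0359% of all 16727 genes tested were called, 0.0239% lower and 0.012% higher, the smallest adjusted p among the 36 being 0.155. Missing that threshold does not show that the lungs were alike. Of the 36, 27 had a negative and 9 a positive log2 fold change, with a median of −0.22, against 0.01 over all genes. The signs moved with the processing: 36 were negative with limma on log2 of TPM, where the median of all genes was −0.23 (pseudocount 1) or −0.54 (pseudocount 0.1), and 21 were negative and 15 positive without the batch term. At an unadjusted p below 0.05, 11 were lower and 0 higher, against 7.87% of all genes lower and 6.13% higher. The 2 genes whose groups did not overlap, Flt1 and Gpihbp1, were both lower, against 3.05% of all genes lower without overlap.

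All 5 lung capillary genes had a negative log2 fold change in tumor-bearing lungs, with a median of −0.46, and 4 had an unadjusted p below 0.05. The median of the 31 pan-endothelial genes was −0.13, with 22 negative and 7 with an unadjusted p below 0.05. Gpihbp1 had 42.5, 48.0, 46.0 and 63.4 CPM in tumor-bearing lungs 6879, 6880, 6881 and 6877, against 73.0, 75.9, 82.1 and 89.6 CPM in normal lungs 6886, 6888, 6887 and 6893 (log2 fold change −0.61, SE 0.11, unadjusted p = 0.000402, adjusted p = 0.155). The highest tumor-bearing lung, 6877, is the only one of batch 2, and the batch 2 library of normal mouse 6886, not in this fit, had 66.0 CPM, close to it. Car4 had 51.2, 53.5, 53.6 and 43.7 CPM in tumor-bearing lungs, against 63.8, 77.3, 51.2 and 59.4 CPM in normal lungs (log2 fold change −0.39, SE 0.12, unadjusted p = 0.00956, adjusted p = 0.233), and the groups overlapped. Ramp2 (log2 fold change −0.51, SE 0.14, unadjusted p = 0.00518, adjusted p = 0.205) and Tmem100 (log2 fold change −0.46, SE 0.17, unadjusted p = 0.0216, adjusted p = 0.29) lay lower too, and Calcrl had the smallest difference of the 5 (log2 fold change −0.25, SE 0.19, unadjusted p = 0.234, adjusted p = 0.594). Within batch 1 and batch 2 taken alone, the log2 fold changes were −0.68 and −0.36 for Gpihbp1, −0.59 and −0.34 for Ramp2, −0.39 and −0.39 for Car4, −0.59 and −0.20 for Tmem100 and −0.22 and −0.32 for Calcrl. All 5 were negative within both batches, although batch 2 holds 1 tumor-bearing lung. Normal mice 6886 and 6888 are controls in both batches, so the agreement in sign is not an independent repeat.

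Among pan-endothelial genes, Flt1, at chr5:147561604-147726011 (GRCm38), had the largest difference. It had 165, 200.5, 163 and 162 CPM in tumor-bearing lungs 6879, 6880, 6881 and 6877, against 291, 464, 254 and 212 CPM in normal lungs 6886, 6888, 6887 and 6893 (log2 fold change −0.89, SE 0.19, unadjusted p = 0.000907, adjusted p = 0.173). The tumor-bearing lungs all lay below the normal lungs, of which the batch 1 library of 6888 was the highest. The log2 fold change was −1.07 within batch 1 and −0.55 within batch 2. Without normal lung 6888 it was −0.63. Kdr, which also binds VEGF-A, was not called at either threshold (log2 fold change 0.16, SE 0.13, unadjusted p = 0.274, adjusted p = 0.634), and Kdr had 364, 475, 475 and 203 CPM in tumor-bearing lungs and 403, 374, 175 and 201 CPM in normal lungs.

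Further genes with an unadjusted p below 0.05 were Emcn (log2 fold change −0.54, SE 0.16), Pecam1 (log2 fold change −0.53, SE 0.20), Sox7 (log2 fold change −0.50, SE 0.17), Adgrl4 (log2 fold change −0.49, SE 0.15), Fli1 (log2 fold change −0.47, SE 0.19) and S1pr1 (log2 fold change −0.47, SE 0.14), none past the adjusted threshold. Egfl7 had the largest positive value (log2 fold change 0.53, SE 0.26, unadjusted p = 0.071, adjusted p = 0.4), with 409, 207, 315 and 181 CPM in tumor-bearing lungs and 179.8, 172, 206 and 167 CPM in normal lungs. Its log2 fold change was 0.84 in batch 1 and 0.02 in batch 2. The high values were those of lungs 6879 and 6881 of batch 1, while lung 6880 of batch 1, at 207 CPM, lay near the highest normal lung. Sox18 had opposite signs, 0.44 in batch 1 and −0.59 in batch 2. Over the 36 genes, 22 were negative in both batches, 5 positive in both and 9 of opposite sign.

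Other tools moved the calls in this comparison. DESeq2 called 3 of the 36 lower, Flt1 (log2 fold change −0.89, adjusted p = 0.00295), Gpihbp1 (−0.61, adjusted p = 0.00134) and Ramp2 (−0.52, adjusted p = 0.0445), where it called 2.29% of the 12177 genes with an adjusted p lower. edgeR without the filter on low counts called Flt1 (−0.91, adjusted p = 0.00966), where 275 of all genes were called in either direction. With the batch 2 libraries of mice 6886 and 6888 in place of their batch 1 libraries, edgeR gave adjusted p = 0.717 for Flt1 and 0.844 for Gpihbp1. Protein-coding genes took 49.0 to 59.0% of counts in tumor-bearing lungs of batch 1, against 68.2 to 69.5% in normal lungs of that batch. Scaled to protein-coding genes alone, the median of the 36 genes was −0.20 and 0 were called. Heart muscle genes took 0.188% of protein-coding counts in tumor-bearing lung 6879 and 0.00654 to 0.00747% in the other tumor-bearing lungs of batch 1. Without lung 6879 the median of the 36 genes was −0.15 and that of the lung capillary genes −0.38.

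**Figure D4:**
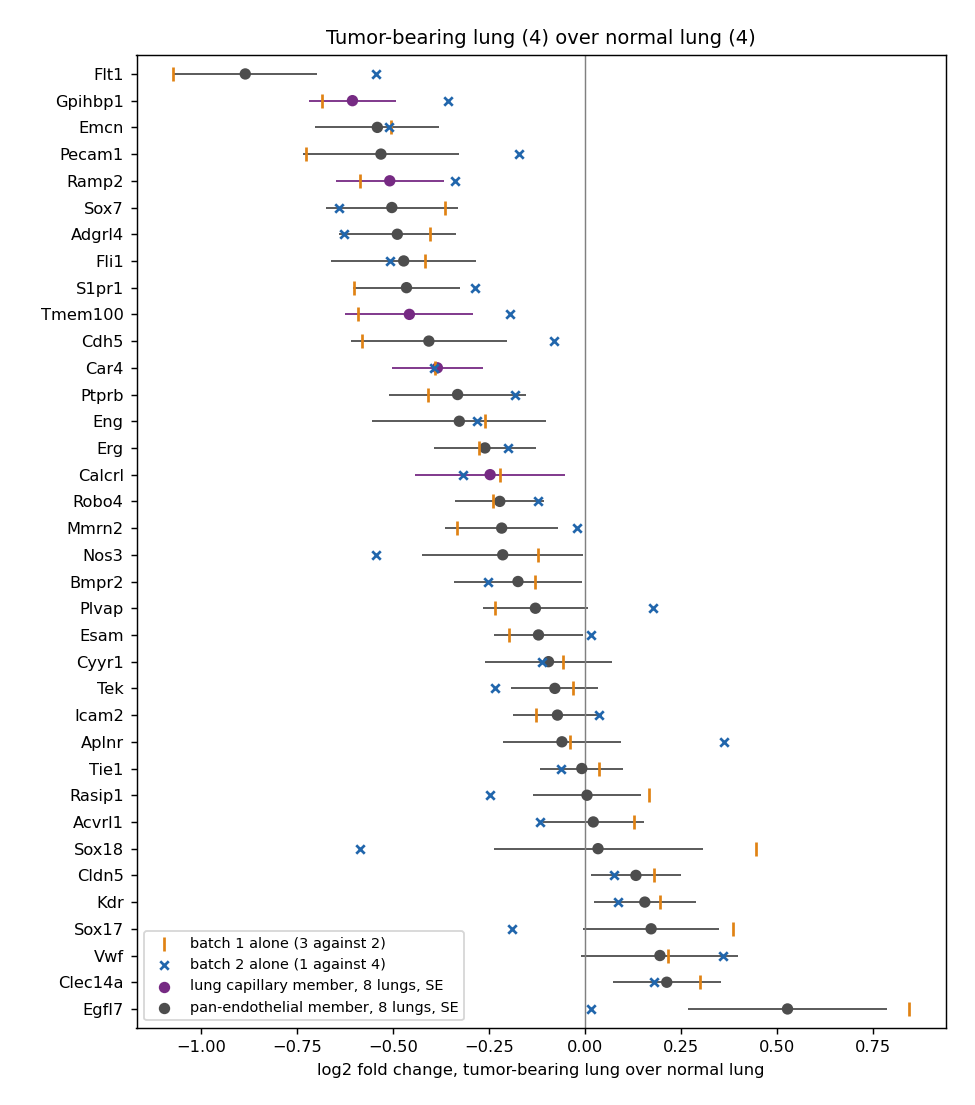
Log2 fold change of the 36 endothelial genes in 4 tumor-bearing lungs over 4 normal lungs, fitted with batch, as points with SE, with the value of batch 1 alone (bars) and of batch 2 alone (crosses). The 5 lung capillary genes lie between −0.61 and −0.25, and Flt1 stands lowest at −0.89.

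Other vascular gene lists were read beside the 36 genes. Of 19 other pan-endothelial genes, 18 were lower in breast tumors than in normal lung, with a median log2 fold change of −3.66. Adgrf5, an adhesion receptor of lung endothelium, had 14.9 ± 2.23 CPM in the tumors and 831 ± 66.7 CPM in normal lungs (log2 fold change −5.79, SE 0.22, adjusted p = 2.24e-07, SD, n = 3 and 4). Hey1, a Notch target, was the one not called (log2 fold change −0.0007). Of 15 other lung capillary genes, 14 were lower, with a median of −5.44, and Fabp4, a fatty acid carrier also known in adipocytes and macrophages, was higher (log2 fold change 4.70, SE 0.39). The lower ones include Prx (−5.85), the long noncoding RNA Fendrr (−7.42) and the transcription factor Tbx2 (−6.31). As in the 36 genes, the lung capillary list had the lower median. Both lists were read in the same libraries and hold genes taken for their abundance in lung. That choice favours a larger difference from lung, so the second list is no independent support. Hey1 and Fabp4 were named after their values were seen.

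Of 15 genes of angiogenic and tumor vessels, 5 were higher and 8 lower in the tumors than in normal lung, with a median log2 fold change of −0.51. The list ran from −3.81 to 5.12, with 9 values negative and 6 positive. Only the 5 higher genes are named below, so the named genes do not stand for the list. Over all genes 29.4% were higher and 27.4% lower, so the number higher in this list was near that of genes at large. Pgf, placental growth factor and a ligand of Flt1, had 45.7 ± 14.2 CPM in the tumors and 1.32 ± 0.315 CPM in normal lungs (log2 fold change 5.12, SE 0.27, adjusted p = 1.04e-06). The other 4 higher genes, of which Cxcr4, Lamb1 and Unc5b were named after their values were seen, were Vwa1 (2.72), Cxcr4 (1.04), Lamb1 (1.01) and Unc5b (0.76, all log2 fold changes), genes also known outside vessels. The ligand was thus higher while its receptor Flt1 was lower (log2 fold change −4.23, SE 0.20). Of 12 smooth muscle and pericyte genes 9 were lower and 1, Rgs5 of pericytes, was higher (log2 fold change 2.37, SE 0.15, adjusted p = 2.74e-06). The median of these 12 was −1.25 and 11 values were negative, those of the pericyte genes Pdgfrb and Cspg4 included. Rgs5 thus does not stand for the list. All 7 lymphatic genes were lower, with a median of −3.96, and 4 of 6 venous and activated endothelial genes were lower, with a median of −1.66, against the same 27.4% of all genes.

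In tumor-bearing against normal lung, none of these lists held a called gene. The median log2 fold change was −0.03 over the 19 other pan-endothelial genes and −0.06 over the 15 other lung capillary genes, of which Foxf1 (log2 fold change −0.46, SE 0.13, adjusted p = 0.21) and Prx (log2 fold change −0.45, SE 0.15, adjusted p = 0.261) had the smallest p. At an unadjusted p below 0.05, 4 of the 15 other lung capillary genes were lower and 0 higher, and 2 of the 19 other pan-endothelial genes were lower and 1 higher, against 7.87% of all genes lower and 6.13% higher. Leukocyte genes had a median of 0.50, with 6 of 12 higher and 1 lower at an unadjusted p below 0.05 (6.13% and 7.87% of all genes), the lymphatic genes −0.30, the alveolar epithelial genes −0.25 and the mitochondrial genes −0.50, and their part in the vessel gene values was not tested.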

How the data were processed

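From 20 mg of frozen tissue per sample, RNA was extracted, freed of ribosomal RNA and made into libraries (100 ng input, single reads of 75 bp), per the labels' protocols. RNA of low quality was not fragmented, and which libraries this touched is not given in the sources used here. The submitters' processing notes name Salmon, DESeq2 1.18.1 and the build mm10. The authors deposited estimated counts, also called expected counts, and TPM for 13 libraries. Whether counting used strand is not given in the sources used here, and 9 of the 36 genes overlap a gene on the opposite strand and 8 one on the same strand, so their counts are uncertain. Count over TPM, gene by gene, differed between libraries by a single factor (within 1e-09 log2 over 17718 genes), so the deposited counts carry the same information as the TPM.

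Gene IDs were named from GENCODE M21 (46201 of 46679). Counts were rounded to whole numbers and tested with edgeR 4.0.16 under R 4.3.3 (quasi-likelihood, TMM, filterByExpr, Benjamini-Hochberg over all genes tested, threshold 0.05). The mouse was the replicate. Tumor-bearing against normal lung used 8 lungs, with batch as a term and the batch 1 library of the 2 repeated mice. Tumors against normal lung used 7 batch 2 libraries. Tumors against tumor-bearing lung used 11 libraries with batch. CPM use TMM factors over all 13 libraries, log2 CPM a prior count of 2. Counting without molecular identifiers does not count independent molecules, and depth limits the lowest tumor values. Alternatives were limma 3.58.1 (voom, and log2 of TPM with a pseudocount of 1 or 0.1), DESeq2 1.42.0, other scalings and filters, each batch alone, the replicate block and leaving out each library. The fits were tested on simulated data. The 36 genes, the gene lists, their roles and their split were chosen with earlier results of these data known. Named genes are the 36, at most the 3 genes of smallest p of each other list at a mean log2 CPM of at least 0, and markers of other cell types beside a result. Motif forms were picked by hand.

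Tumors and lungs of mice 6877, 6880 and 6881 come from the same animals, so the mouse number pairs them. The residual correlations of the pairs over 18297 genes were 0.179, 0.0355 and −0.133.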

Additional observations from a re-analysis of the deposited data

Results flagged for a closer look

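In groups of 4 lungs, 72 sets of values (36 genes in tumor-bearing lungs and in normal lungs of batch 2) were searched for a single library far from the others on the log2 CPM scale, and 9 were found, where chance gives about 1 in 20 groups. In 6 of the 9 the library was that of mouse 6877, the sole batch 2 member of the tumor-bearing group, below the other 3. It had 161 CPM of Tek, against 349 to 396 in the other tumor-bearing lungs, and 98.5 CPM of Tie1, against 171 to 178. It had 293 CPM of Acvrl1, against 498 to 516, and 16.1 CPM of Sox17, against 33.3 to 38.3. It had 42.7 CPM of Robo4, against 67.5 to 72.2, and 70.2 CPM of Rasip1, against 172 to 197. In the 2 normal lungs prepared in both batches, batch 2 minus batch 1 for these 6 genes was −0.91 to −0.18 log2 CPM in mouse 6886 and −1.16 to −0.45 log2 CPM in mouse 6888, and the rate of 1 in 20 takes no account of that difference. In lung 6877 the batch and the mouse cannot be told apart.

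Tumor-bearing lung 6880 stood above the others for Flt1, at 200.5 CPM, against 162 to 165. Normal lung 6893 stood above the other normal lungs of batch 2 for Eng, at 544 CPM, against 368 to 380. Normal lung 6888 stood below them for Sox7, at 39.8 CPM, against 55.8 to 58.9.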

How the results depend on the processing

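For tumors against normal lung, all 36 genes were called lower under each of 16 alternatives, and for tumors against tumor-bearing lung under 20 of 22, the exceptions being 28 called with limma on log2(TPM + 1) and 33 with a pseudocount of 0.1. Over all genes, 10246 of 18038 and 8471 of 18297 were called in either direction as reported. Under the alternatives 8787 to 10811 and 5322 to 9624 were called, with 5322 and 6141 for the 2 exceptions. The share lower under each alternative is not given here. Medians over all 36, the 31 pan-endothelial and the 5 lung capillary genes are given in that order. With limma on log2(TPM + 1) they were −2.18, −2.04 and −3.74 for tumors against normal lung, −1.48, −1.31 and −2.86 against tumor-bearing lung, and −0.71, −0.68 and −1.08 for tumor-bearing against normal lung. With a pseudocount of 0.1 they were −3.75, −3.70 and −5.69, then −2.91, −2.85 and −4.72, then −0.84, −0.78 and −1.16. TPM moved the median of all genes in the lung comparison too, to −0.23 and −0.54. Without a batch term the medians were −4.49, −4.31 and −6.56 for tumors against tumor-bearing lung, and −0.061 for all 36 and −7.1e-05 for the pan-endothelial genes in the lung comparison. The causes were not tested.

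Leaving out each library, the medians ran from −4.30 to −4.04 (all 36) and from −6.64 to −6.33 (lung capillary) for tumors against normal lung. They ran from −4.11 to −3.80 and from −6.35 to −6.05 against tumor-bearing lung. With the mouse as a replicate block, 36 genes were called lower against tumor-bearing lung with medians of −4.08, −3.98 and −6.43, and the block changed no call among the 36. In that fit 8607 of all genes were called in either direction. In the lung comparison 0 of the 36 were called under 18 of 20 alternatives, 1 without the filter and 3 with DESeq2, and all 5 lung capillary genes were negative under all 20. Among the 20, batch 2 alone and the batch 2 libraries of repeated mice both rest on tumor-bearing lung 6877, so they are not separate checks. Genes called over the whole table ranged more widely there, with 6 as reported, 426 with DESeq2, 275 without the filter and 90 and 65 on TPM. They were 1 without batch, 2 with repeats summed, 4 on protein-coding genes and 39 in batch 1 alone. With a library left out they ran from 0 to 221, 221 without tumor-bearing lung 6877. Against tumor-bearing lung 8471 genes were called, and 5322 on log2(TPM + 1).

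Relative to the pan-endothelial level, scaling to 19 other genes turned the sign of Pecam1 (−0.51), Tie1 (−0.60), Gpihbp1 (−0.11), Sox18 (−0.15), Robo4 (−0.012), Icam2 (−0.76) and S1pr1 (−0.68). Pecam1, Tie1, Icam2 and S1pr1 went from not called to lower, and Gpihbp1, Sox18 and Robo4 from higher to not called. Depth limits Car4 and Tmem100 in the tumors, with 17 and 23 counts over 3 libraries.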
